A study of Rattus norvegicus with 6 samples.

Results

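Epithelial and mesenchymal cells keep their states with opposing sets of regulators. ESRP1 and ESRP2 are RNA-binding proteins that direct epithelial splice forms, and the Grainyhead-like factors, encoded by Grhl1, Grhl2 and Grhl3, and OVOL1 activate or protect epithelial genes. ZEB1, ZEB2, SNAI1 and SNAI2 are zinc finger repressors that bind E-box letters at epithelial genes such as Cdh1 and mark mesenchymal cells and epithelial cells that lose their junctions. The genes described here are those rows of the deposited table named for these 10 regulators. The table as used here contains 7 of them among 13728 genes, 4 epithelial (Esrp1, Esrp2, Grhl1 and Grhl2) and 3 mesenchymal (Zeb1, Zeb2 and Snai2). The copy of the table is cut off part-way and its TPM sum to between 81.3% and 82.7% of a full library. Expression of Grhl3, Ovol1 and Snai1, which have no row in the part held, was therefore not analysed here. Shares of all genes refer to the part held.

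Bulk RNA-seq was performed on 3 samples of rat endometrial epithelial organoids (rEEOs) and 3 samples of rat bone marrow mesenchymal stem cells (rBMSCs), to learn how the expression of the organoids differs from that of the marrow cells. The rEEOs were grown from glandular fragments of uteri of female Sprague-Dawley rats, 5 weeks old, and used at passages 3 to 5. They were kept in Matrigel with an expansion medium that holds EGF, FGF10, noggin, Wnt3a, R-Spondin-1, the ROCK inhibitor Y27632 and the TGF-beta receptor inhibitor A83-01. The rBMSCs were a purchased product that carries a red fluorescent protein, grown on plastic in medium with fetal bovine serum, and the sex and age of its source animals are not given in the sources used here. The Y-linked Ddx3y, in the row named Ddx3, had 35.9, 28.7 and 37.1 TPM in rBMSCs and was at 0 in rEEOs, so the sex of the cells differed as well. Cell type, sex, medium, TGF-beta receptor inhibition and growth in gel differ between the groups together and cannot be told apart. The labels do not say whether the 3 samples of a group came from separate animals or cultures, so p-values measure the spread between these samples, which may be technical.

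Expected counts summed to between 14892115 and 15421501 reads in rBMSCs and between 10457958 and 13883993 in rEEOs over the genes held. Values of single libraries are given in the order of replicates 1, 2 and 3. The spread between replicates was larger in rEEOs, with a median SD of log2(CPM + 1) of 0.340 compared to 0.0877 in rBMSCs, and of 0.164 in rEEOs without replicate 1. The 6 epithelial markers Epcam, Cdh1, Krt8, Krt18, Krt19 and Muc1 summed to between 3750 and 4372 TPM (a level per transcript length, scaled to the library) in rEEOs and between 2.82 and 3.52 TPM in rBMSCs. Of the mesenchymal stem cell markers, Thy1 and Pdgfrb reached 1221 ± 3.18 and 415 ± 14.6 TPM in rBMSCs (SD, n = 3 each) and were at 0 in rEEOs. Eng had a mean of 66.4 TPM in rBMSCs and 0.55 TPM in rEEOs. Nt5e was weakly read, with 1.14, 0.69 and 1.23 TPM in rBMSCs and 0.12, 0.03 and 0.44 TPM in rEEOs (edgeR adjusted p = 0.0507). All 6 markers of this kind, which include the widely expressed Cd44 and Itgb1, summed to between 3059 and 3252 TPM in rBMSCs and between 184 and 421 TPM in rEEOs. The 3 blood markers held, Cd34, Laptm5 and Csf1r, summed to at most 0.30 TPM in any library, and the 3 endothelial markers held, Pecam1, Cdh5 and Tek, to at most 0.50 TPM. The smooth muscle markers Acta2, Des and Cnn1 summed to between 5773 and 6535 TPM in rBMSCs and between 0.72 and 1.08 TPM in rEEOs.

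All 4 epithelial regulators were called higher and all 3 mesenchymal regulators were called lower in rEEOs. A call required a Benjamini-Hochberg adjusted p below 0.05 and a log2 fold change of more than 2 in size, by the quasi-likelihood test of edgeR over all genes, and SE is the standard error of the log2 fold change. Among the 10607 genes tested, 16.3% were called higher and 13.3% lower, 29.7% in all, and on the adjusted p alone 33.3% were higher and 30.2% lower. Every regulator passed the filter of 10 counts in 3 libraries through the libraries of its higher cell type only, so the number called is a description of these 7 rows. TPM values did not overlap between the cell types for any of the 7 regulators, and among all genes tested 31.1% were without overlap and higher in rEEOs and 38.4% without overlap and lower. In bulk RNA, fewer cells with a transcript and less transcript per cell cannot be told apart.

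**Figure D1:**
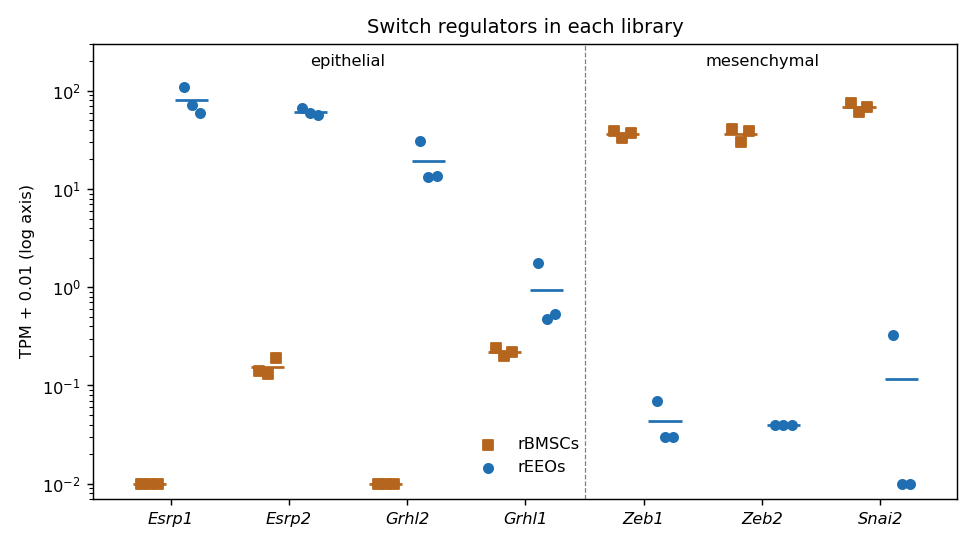
TPM of the 7 regulators in each of the 3 rBMSCs (squares) and 3 rEEOs (circles) libraries, with 0.01 added and drawn on a log axis; short lines are the mean of a group and points at the bottom are listed at 0. Esrp1, Esrp2 and Grhl2 lie above 13 TPM in every rEEOs library, Zeb1, Zeb2 and Snai2 lie above 30 TPM in every rBMSCs library, and Grhl1 stays below 2 TPM in all 6 libraries.

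Esrp2 had 2829, 2398 and 2261 counts in rEEOs and 4, 5 and 7 counts in rBMSCs. The levels were 66.8, 59.3 and 57.4 TPM in rEEOs and 0.13, 0.12 and 0.18 TPM in rBMSCs. Every rEEOs library thus lay far above every rBMSCs library, and the lowest rEEOs value was 319 times the highest rBMSCs value. The log2 fold change of Esrp2 was 8.85 (SE 0.25, edgeR adjusted p = 4.59e-06). The ratio of summed counts was 467 with a 95% counting interval from 287 to 817. Here and below, these ratios are scaled for library size multiplied by its TMM factor. Esrp2 was the steadiest of the epithelial regulators between rEEOs libraries, with a coefficient of variation of 8.15% in TPM.

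Esrp1, the paralog with which ESRP2 shares its RNA targets, had 4245, 2872 and 2410 counts in rEEOs and no count in any rBMSCs library. Its level was 109.7, 72.2 and 59.5 TPM in rEEOs, a mean of 80.5 ± 26.1 TPM (SD, n = 3) compared to 61.1 ± 4.98 TPM (SD, n = 3) for Esrp2, and the ranges of the paralogs overlapped. Against 3 counts in each rBMSCs library, Esrp1 was at least 1046-fold higher in rEEOs (edgeR adjusted p = 2.38e-05). Esrp1 supplied 62.2%, 54.9% and 50.9% of the summed Esrp1 and Esrp2 TPM in rEEOs. In rBMSCs the few Esrp reads, 16 in all, were all assigned to Esrp2. Counts of 0 in libraries of this depth leave levels under about 0.220 to 0.233 CPM (counts scaled to library size), which 3 counts would give, undecided, and these floors cover counting error only.

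Grhl2, which activates Cdh1 and other junction genes in many epithelia, had 1878, 793 and 804 counts in rEEOs and no count in rBMSCs. Its level was 30.6, 13.4 and 13.4 TPM in rEEOs, so replicate 1 was well above the others, which were alike. Against 3 counts in each rBMSCs library, Grhl2 was at least 369-fold higher (edgeR adjusted p = 0.000127). In TPM, Grhl2 lay below Esrp1 and Esrp2 in each rEEOs library.

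Grhl1 was the weakest of the regulators and the least exclusive. It had 72, 19 and 21 counts in rEEOs and 8, 7 and 7 counts in rBMSCs, which correspond to 1.77, 0.47 and 0.52 TPM and to 0.23, 0.19 and 0.21 TPM. The groups did not overlap, but rEEOs replicates 2 and 3 were closer to the rBMSCs libraries than to rEEOs replicate 1. Its log2 fold change was 2.23 (SE 0.49, edgeR adjusted p = 0.00773), near the threshold of 2. Without rEEOs replicate 1 it was 1.63 (edgeR adjusted p = 0.00303), below that threshold, so the call of Grhl1 rests on that library. The ratio of summed counts was 5.08 with a 95% counting interval from 3.20 to 8.43.

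Zeb1 had 2029, 1817 and 1842 counts in rBMSCs and 4, 1 and 1 counts in rEEOs. Its level was 38.9, 32.9 and 36.9 TPM in rBMSCs and 0.06, 0.02 and 0.02 TPM in rEEOs. All rBMSCs libraries were close to each other, and the lowest of them was 549 times the highest rEEOs library. The log2 fold change was -9.82 (SE 0.30, edgeR adjusted p = 4.73e-06), and the ratio of summed counts was 950 with a 95% counting interval from 436 to 2590.

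Zeb2 followed Zeb1 closely. It had 2181, 1784 and 2010 counts in rBMSCs and 2 counts in each rEEOs library, or 40.8, 30.2 and 39.0 TPM compared to 0.03 TPM in each rEEOs library. The mean of 36.7 ± 5.66 TPM (SD, n = 3) in rBMSCs was within the spread of the 36.3 ± 3.06 TPM (SD, n = 3) of Zeb1. Zeb1 supplied 48.9%, 52.2% and 48.7% of the summed Zeb1 and Zeb2 TPM in rBMSCs. The log2 fold change of Zeb2 was -9.87 (SE 0.23, edgeR adjusted p = 4.02e-06), and the ratio of summed counts was 998 with a 95% counting interval from 458 to 2721.

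The 250 bases before the start of Zeb1 and of Zeb2 are shown because these repressors were read at equal levels in rBMSCs and because their own binding letters can be looked for there. The sequences are from RefSeq on the GRCr8 assembly, for Zeb1 chr17:56810654-56810903 and for Zeb2 chr3:49754324-49754573, each on the minus strand and written 5′ to 3′ toward the start. Capitals mark the E-box letters CAGGTG or, on the other strand, CACCTG.
Zeb1: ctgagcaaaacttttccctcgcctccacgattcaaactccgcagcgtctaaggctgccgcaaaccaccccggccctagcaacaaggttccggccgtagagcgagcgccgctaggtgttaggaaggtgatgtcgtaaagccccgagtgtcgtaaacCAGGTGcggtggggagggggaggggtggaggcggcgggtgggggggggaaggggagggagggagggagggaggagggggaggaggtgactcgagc
Zeb2: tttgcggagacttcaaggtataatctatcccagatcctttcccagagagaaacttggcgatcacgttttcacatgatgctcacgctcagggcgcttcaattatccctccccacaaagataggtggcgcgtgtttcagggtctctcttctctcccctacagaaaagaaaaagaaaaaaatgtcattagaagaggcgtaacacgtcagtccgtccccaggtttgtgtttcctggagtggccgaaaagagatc
The Zeb1 window holds 1 E-box match, CAGGTG, from 95 to 90 bases before the start, and the Zeb2 window holds none. Of 33469 promoter windows of this length, 15.9% hold these letters on either strand. Of the 4 windows listed for Grhl1, some of which overlap, 1 holds CACCTG, from 39 to 34 bases before its start. The single windows listed for Epcam, and for Grhl3 and Snai1, whose expression was not analysed, each hold CACCTG too. The Grainyhead letters CCGGTT or, on the other strand, AACCGG are in 5.67% of all windows and in none of those of Zeb1, Zeb2 and Grhl1. The Zeb1 window has 65.2% G and C and 18 CpG sites, compared to 47.6% and 11 in that of Zeb2. A match of letters is a description of the sequence. Esrp1, Esrp2, Grhl2 and Snai2 have no window in the promoter table used here.

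Snai2, which encodes the repressor SLUG, was the most abundant of the mesenchymal regulators. It had 395, 344 and 342 counts in rBMSCs, or 76.1, 61.2 and 67.9 TPM, and 2, 0 and 0 counts in rEEOs, or 0.32, 0 and 0 TPM. Every rBMSCs library of Snai2 was above every rBMSCs library of Zeb1 and Zeb2 in TPM. The log2 fold change was -8.85 (SE 0.56, edgeR adjusted p = 3.95e-05). Because only 2 reads were seen in rEEOs, the ratio of summed counts of 542 has a wide 95% counting interval, from 150 to 4479.

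**Figure D2:**
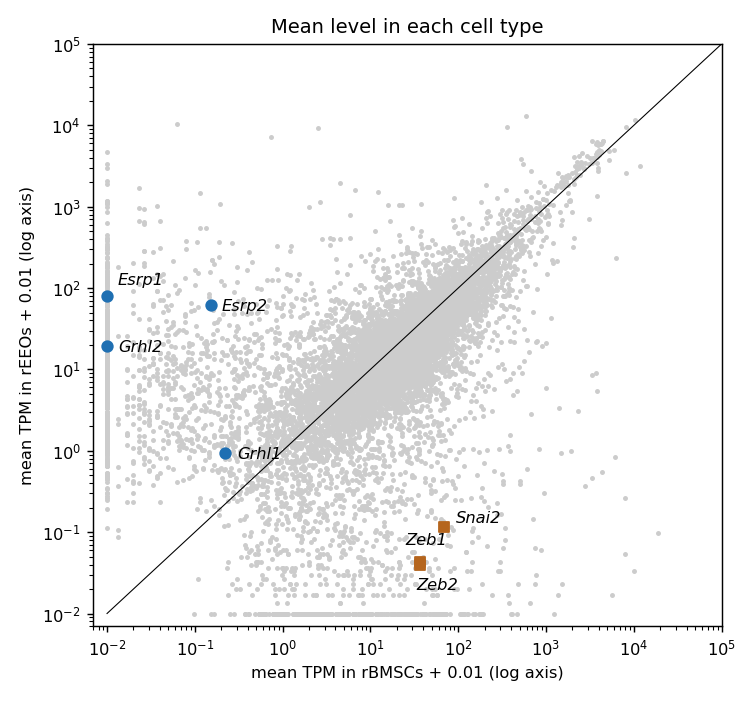
Mean TPM of each of the 10607 genes tested in rBMSCs (x axis) and in rEEOs (y axis), with 0.01 added on log axes; blue circles are the epithelial and brown squares the mesenchymal regulators, and the line marks equal levels. Esrp1, Esrp2 and Grhl2 lie at the upper left and Zeb1, Zeb2 and Snai2 at the lower right, away from the bulk of genes, while Grhl1 lies close to the line.

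How exclusive the regulators were was measured as the share of a gene's TPM found in its higher cell type, the mean of that cell type over the sum of the means. It was 100% for Esrp1 and Grhl2, 99.92% for Zeb2, 99.91% for Zeb1, 99.84% for Snai2, 99.77% for Esrp2 and 81.4% for Grhl1. Over the 9 pairs of a rEEOs with a rBMSCs library, the lowest share was 99.69% for Esrp2, 99.82% for Zeb1, 99.90% for Zeb2 and 99.48% for Snai2, whereas that of Grhl1 lay between 67.1% and 90.3%. Without rEEOs replicate 1 the share of Grhl1 was 70.2%.

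By a stricter measure, at most 3 counts in every library of the other cell type, 4 of the 7 regulators were read in one cell type only. These were Esrp1 and Grhl2 in rEEOs and Zeb2 and Snai2 in rBMSCs. Of all genes tested, 7.67% met this measure in rEEOs and 4.32% in rBMSCs. Esrp2, Grhl1 and Zeb1 missed it with up to 7, 8 and 4 counts in a library of the other cell type. With no count allowed, the number fell to 2 regulators (Esrp1 and Grhl2), and with up to 10 counts allowed it rose to 7, so the number depends on the limit. The shares of all genes tested at these other limits were not computed.

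Summed over the regulators held, the epithelial side made up 99.80%, 99.97% and 99.96% of the TPM of both sides in rEEOs and 0.231%, 0.249% and 0.270% in rBMSCs. The mesenchymal side summed to 0.41, 0.05 and 0.05 TPM in rEEOs and to 155.8, 124.3 and 143.9 TPM in rBMSCs. Each library was thus almost wholly on one side. In reads, the mesenchymal regulators had 8, 3 and 3 counts in rEEOs and the epithelial regulators had 12, 12 and 14 counts in rBMSCs.

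Within rEEOs all 4 epithelial regulators had their highest TPM in replicate 1, by different amounts. Relative to the mean of replicates 2 and 3, the TPM of replicate 1 was 3.58 times as high for Grhl1, 2.28 times for Grhl2, 1.67 times for Esrp1 and 1.15 times for Esrp2. The median over 9552 genes with at least 10 counts in each rEEOs library was 1.39 times in TPM. In CPM with TMM scaling, which sets the median near 1 (0.983), the ratios were 2.56 for Grhl1, 1.67 for Grhl2, 1.14 for Esrp1 and 0.862 for Esrp2. Grhl1, Grhl2 and Esrp1 were thus above the median gene on either scale, at the 93.5th, 81.8th and 60.4th percentile of the CPM ratios. Esrp2 was below the median gene on either scale, with a ratio above 1 in TPM and below 1 in CPM. This is a comparison of single libraries with no replicate check.

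**Figure D3:**
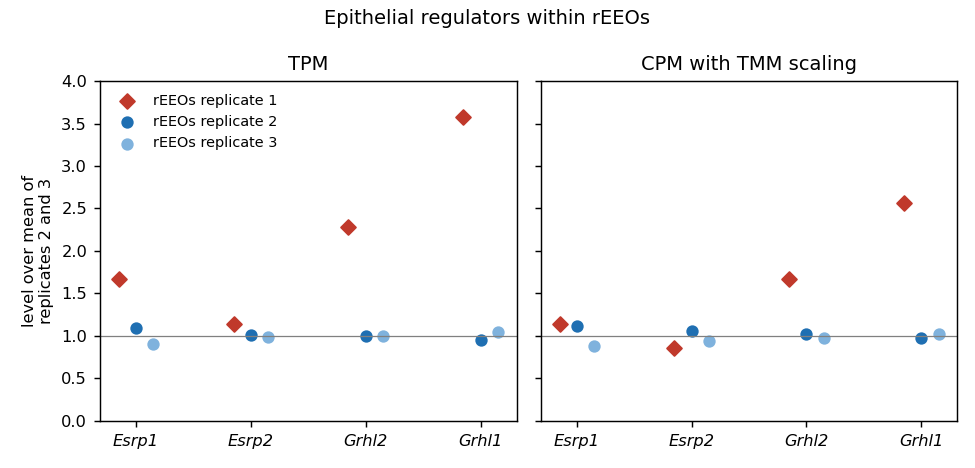
Level of the 4 epithelial regulators in each rEEOs library over the mean of replicates 2 and 3, in TPM (left) and in CPM with TMM scaling (right); diamonds are replicate 1 and circles replicates 2 and 3. Grhl1 and Grhl2 are highest in replicate 1 on either scale, and Esrp2 stays between 0.86 and 1.15 for replicate 1.

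By root mean square difference of log2(TPM + 1) over the 6 libraries, each gene taken relative to its own mean, the genes nearest to Esrp2 were Hpse (0.076), Niacr1 (0.097), Cyb561 (0.099), Cmtm8 (0.118) and Rnf144b (0.128). Hpse had 55.2, 49.3 and 44.3 TPM in rEEOs and at most 0.03 TPM in rBMSCs. Niacr1, named Hcar2 in RefSeq, had between 46.6 and 48.9 TPM in rEEOs and was listed at 0 in rBMSCs. Ptpn18, Wwc1 and Aldh1a7 were nearest to Esrp1. Marveld3, a tight junction protein gene that is also in the list of epithelial targets, was nearest to Grhl2, followed by St3gal1 and Bmp8b. Cog6, Lars2 and Elf1 were nearest to Grhl1, genes read at 9 to 36.4 TPM in rBMSCs. Zeb1 had Daam2, Mex3b and Ebf1 as its neighbours, and Snai2 had Klhl13, Sepp1 (Selenop in RefSeq) and Ston1. For Zeb2 they were the row named Ddx3, which by its gene ID is Ddx3y on the Y chromosome, then Zeb1 (0.067) and Camk2n1. With 6 libraries in separate groups, these distances mostly order genes by the size of the difference in log2(TPM + 1) between the cell types. The 1 added to TPM shrinks the difference of a weakly read gene. Grhl1, read at low TPM in both cell types, thus lies near genes that differ by a smaller fold in TPM.

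The lists around the regulators hold other factors, partners, and genes typical of epithelial or mesenchymal cells, here called targets. Whether the regulators act on these genes was not tested. Epcam, Cdh1, Krt8, Krt18, Krt19, Thy1, Pdgfrb and Acta2 are also among the cell type markers given above. The lists were chosen with results of these data known. Of the genes tested, 8 of 10 other epithelial factors and 21 of 24 epithelial targets reached 10 counts in every rEEOs library and not in every rBMSCs library. For 8 of 10 other mesenchymal factors and 11 of 15 mesenchymal targets it was the opposite. The calls and medians of these lists are therefore a description. Among all genes tested, 16.3% were called higher and 13.3% lower. Of 16 other epithelial transcription factors, all held, 10 were tested, of which 9 were called higher and none lower in rEEOs. Their median log2 fold change was 9.45, or 6.57 with genes at 0 in rBMSCs set to their bound, compared to 0.08 over all genes tested. Elf3, an ETS factor of differentiated epithelia, had 344 ± 118.6 TPM (SD, n = 3) in rEEOs and was at 0 in rBMSCs. Ehf, another ETS factor, had 122 ± 102.3 compared to 0.033 ± 0.058 TPM (SD, n = 3 each). Klf5 was shared more, with 58.4 ± 15.2 TPM in rEEOs and 10.7 ± 0.841 TPM in rBMSCs, and its log2 fold change was 2.67 (SE 0.13, edgeR adjusted p = 1.71e-05). Ovol2, a paralog of Ovol1 named after its values were seen, had 6.99, 7.10 and 7.06 TPM in rEEOs and was at 0 in rBMSCs.

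Of 15 other mesenchymal factors, 12 were held and 10 tested. Of these 10, 8 were called lower and none higher in rEEOs, where 13.3% of all genes tested were called lower. The median log2 fold change of these 10 was -10.14, or -7.65 with genes at 0 at their bound. Prrx1, a homeobox factor of limb and marrow mesenchyme, had 117 ± 14.5 TPM in rBMSCs and Prrx2 had 71.9 ± 2.60 TPM (SD, n = 3 each), with no count in rEEOs. Sox4 was read in both cell types, with 37.0 ± 3.40 TPM in rBMSCs and 15.3 ± 3.05 TPM in rEEOs (SD, n = 3 each), and its log2 fold change of -1.01 was under the threshold (SE 0.22, edgeR adjusted p = 0.00705). Twist1, another E-box binding factor named after its values were seen, had 593, 666 and 554 counts in rBMSCs and 1, 0 and 0 in rEEOs.

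All 24 epithelial target genes held, of 25 listed, were tested and called higher in rEEOs, where 16.3% of all genes tested were. Of these 24, 15 had no count in any rBMSCs library, and the share of all genes without one was not computed. The median log2 fold change of these 24 was 13.44, or 9.78 with genes at 0 at their bound. Spint2, a serine protease inhibitor, had 1624 ± 213 TPM in rEEOs and 6.69 ± 0.652 TPM in rBMSCs, and the simple keratin gene Krt8 had 1148 ± 143.8 and 2.67 ± 0.212 TPM (SD, n = 3 each). Epcam had 1113, 1060 and 1062 TPM in rEEOs and was at 0 in rBMSCs. Krt18 had 1012 ± 125.8 TPM (SD, n = 3) in rEEOs and 0, 1 and 0 counts in rBMSCs. Cdh1, the E-cadherin gene and the best known target of ZEB and SNAI repression, is named outside the rule after its values were seen. It had 338, 107.6 and 136.7 TPM in rEEOs and was at 0 in rBMSCs.

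All 15 mesenchymal target genes held, of 19 listed, were called lower in rEEOs, where 13.3% of all genes tested were. The median log2 fold change of these 15 was -13.01, or -12.56 with genes at 0 at their bound. The collagen gene Col1a1 had 18818 ± 1050 TPM in rBMSCs and 2, 5 and 11 counts in rEEOs, and Col3a1 had 10112 ± 378 TPM (SD, n = 3 each) and 0, 1 and 3 counts. Sparc had 7936 ± 34.6 TPM in rBMSCs and 0.05, 0 and 0.71 TPM in rEEOs. Vim, the vimentin gene, was also called lower but stayed well detected, with 171, 297 and 227 TPM in rEEOs compared to 6308 ± 298 TPM (SD, n = 3) in rBMSCs (log2 fold change -4.45, SE 0.40, edgeR adjusted p = 0.000158). In rEEOs, Vim thus had 3.68% of its rBMSCs level, compared to 0.0919% for Zeb1, 0.0819% for Zeb2, 0.156% for Snai2, 0.00319% for Sparc and 0.000461% for Col1a1. The part of other cells in these low values was not tested.

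**Figure D4:**
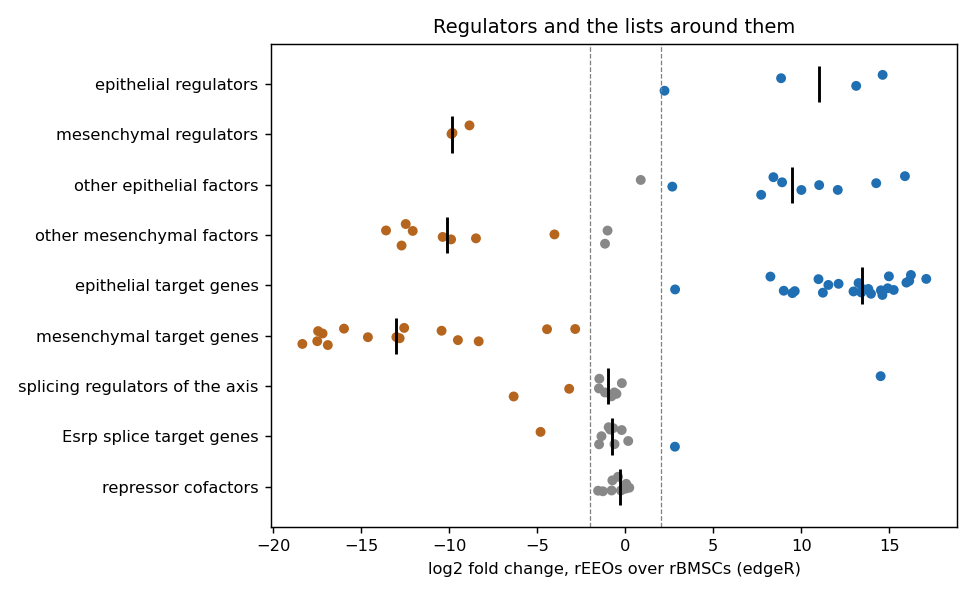
Log2 fold change of each tested gene in 9 lists (edgeR, rEEOs over rBMSCs); points are genes, blue called higher, brown called lower and grey not called, black bars are medians and dashed lines mark the threshold of 2 in each direction. Values of genes with no count in one cell type depend on the prior count of the fit. Most factor and target genes lie beyond the thresholds, epithelial above and mesenchymal below, with Tp63, Tcf4 and Sox4 between them, and the splicing, splice target and cofactor lists lie mostly between them.

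The genes on which the ESRP proteins act were described at the level of whole genes. Of 12 genes with known ESRP-dependent or epithelial and mesenchymal splice forms, 10 were held and tested. Of these 10, 2 were called, where 29.7% of all genes tested were. On the adjusted p alone 1 was higher and 6 were lower in rEEOs, or 4 lower with library size only. With TMM scaling, 33.3% of all genes tested were higher and 30.2% lower on the adjusted p alone. The pair called, named after their values were seen, was Ralgps2, called higher with a log2 fold change of 2.82, and Fgfr1, called lower with one of -4.82. Ralgps2 reached 10 counts in every rEEOs library and not in every rBMSCs library, so its call is a description. Cd44, whose variant exons are included in epithelia, had 61.5 ± 32.9 TPM in rEEOs and 140.6 ± 4.37 TPM in rBMSCs (SD, n = 3 each), and its log2 fold change was -0.86 (SE 0.24, edgeR adjusted p = 0.0202). Its adjusted p was 0.168 with library size only. Ctnnd1, which encodes p120 catenin, had a log2 fold change of -0.20 (edgeR adjusted p = 0.661) and Slk one of 0.17 (edgeR adjusted p = 0.537). Enah had 41.9, 20.9 and 18.1 TPM in rEEOs compared to 97.5 ± 7.21 TPM (SD, n = 3) in rBMSCs, with a log2 fold change of -1.49 (edgeR adjusted p = 0.00055). The table gives 1 value per gene, so splice forms could not be compared.

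Among 10 tested splicing regulators other than Esrp1 and Esrp2, 1 was called higher and 2 were called lower, a share near the 29.7% of all genes tested, and all 3 are named after their values were seen. On the adjusted p alone 1 was higher and 7 were lower in rEEOs, or 5 lower with library size only. With TMM scaling, 33.3% of all genes tested were higher and 30.2% lower on the adjusted p alone. Rbm47, an RNA-binding protein of epithelia, had 123.4, 27.8 and 33.9 TPM in rEEOs and was at 0 in rBMSCs. Mbnl1, a Muscleblind-like protein gene, had 23.6, 2.95 and 4.05 TPM in rEEOs compared to 104 ± 16.7 TPM (SD, n = 3) in rBMSCs (log2 fold change -3.19, edgeR adjusted p = 0.00569), and Nova1 had 44, 37 and 29 counts in rBMSCs and 1, 0 and 0 in rEEOs. Rbm47 passed the filter through the rEEOs libraries only and Nova1 through the rBMSCs libraries only, so their calls are a description. The broadly expressed Ptbp1 had 175.9 ± 79.5 TPM in rEEOs and 308 ± 5.38 TPM in rBMSCs, Hnrnpm had 119 ± 70.3 and 229 ± 3.72 TPM, and Srsf1 had 59.9 ± 16.8 and 80.2 ± 5.95 TPM (SD, n = 3 each). None of these 3 was called. The log2 fold change was -0.62 for Ptbp1 (edgeR adjusted p = 0.0399) and -0.78 for Hnrnpm (edgeR adjusted p = 0.0396), with adjusted p-values of 0.416 and 0.277 with library size only and of 0.0441 and 0.0429 by limma on log2(TPM + 1).

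The corepressors and chromatin enzymes that ZEB and SNAI proteins recruit were less far apart between the cell types. None of the 10 genes was called by edgeR, where 29.7% of all genes tested were, nor by DESeq2 (0) or limma (0). An unadjusted edgeR p below 0.05 was found for 5. An adjusted p below the 0.05 level was also found for 5, all lower in rEEOs, where 30.2% of all genes tested were lower. With library size only, 2 of the 10 were lower and 2 higher at that level. Ctbp1, a cofactor of ZEB1, had 108 ± 31.7 TPM in rEEOs and 207 ± 1.85 TPM in rBMSCs (log2 fold change -0.74, edgeR adjusted p = 0.00296). With library size only, the log2 fold change of Ctbp1 was -0.35 (edgeR adjusted p = 0.0718). Hdac2 had 42.9 ± 3.47 compared to 149.6 ± 0.579 TPM, Hdac1 had 75.5 ± 20.8 compared to 117.3 ± 2.22 TPM, and Smarca4 had 44.5 ± 26.8 compared to 51.97 ± 1.03 TPM (SD, n = 3 each). The log2 fold change of Hdac2 was -1.55 (edgeR adjusted p = 0.000151), or -1.17 with library size only (edgeR adjusted p = 0.000326). That of Hdac1 was -0.41 (edgeR adjusted p = 0.0190), or -0.03 with library size only (edgeR adjusted p = 0.854).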

How the data were processed

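The authors sequenced mRNA of 3 rEEOs and 3 rBMSCs samples with single-end reads. Per the methods and the submitters' processing notes, reads were trimmed with Trim Galore, aligned with Bowtie2 2.2.5 to Rnor_6.0 and quantified with RSEM 1.3.1. The deposited table gives an expected count, a TPM and an FPKM per gene and library, and the authors' means, which were not used, as was FPKM. The copy used ends within its last row, whose values per library are complete. The 42 counts of the regulators are whole.

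Counts were rounded, and genes reaching 10 counts in 3 or more libraries were tested with edgeR 4.0.16 (TMM, glmQLFit, glmQLFTest) in R 4.3.3, with cell type as the only term. A standard error is the log2 fold change over the square root of F. Ratios of summed counts have exact binomial 95% intervals, which cover counting error only. Folds against a cell type at 0 use 3 counts per library. With 3 samples a group, an exact permutation test of 1 gene cannot go below p = 0.1. The scripts were tested on simulated data. Alternatives used DESeq2 1.42.0 and limma 3.58.1, other scalings, filters and thresholds, a replicate block, and each library left out.

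Named were all regulators held, the 4 tested genes of highest mean TPM in each list, any called against its list's name, the 5 genes nearest to Esrp2 and the 3 nearest to each other regulator. Some genes that this rule names are not reported here. Members and lists were chosen with earlier results of these data known. Promoter windows and current symbols are from RefSeq (GRCr8).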

Additional observations from a re-analysis of the deposited data

How the results depend on the processing

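Of 109 refits of a regulator's log2 fold change, 108 kept its direction and its side of the thresholds, and the other was Grhl1 without rEEOs replicate 1, with 1.63 and an adjusted p of 0.00303. Grhl1 could not be fitted with limma or with the filter of 50 counts. All 3 mesenchymal regulators were called lower under every alternative. With each library left out, the epithelial regulators called numbered 3 to 4, all genes called higher 1698 to 1823 and lower 1317 to 1665, and regulators read in one cell type only 4 to 5. Those read in one cell type only were 2 with no count and 7 with up to 10 counts allowed, limits at which the shares of all genes were not computed. A log2 threshold of 1 gave 2663 genes higher and 2287 lower, 6 splicing regulators, 4 splice target genes and 2 cofactors, and limma on log2(TPM + 1) gave 1121 genes higher and 1 splice target gene, as did the filter of 50 counts. The test against a fold change of 2 gave 5 splicing regulators and 1 cofactor. Relative to a median log2 fold change of 0.08 over all genes tested, library size only moved the median to 0.46 and limma on log2(TPM + 1) to -0.22. Same-numbered replicates of the cell types did not deviate together (r = 0.142, 0.159 and -0.126), and the fit with the replicate number as a block called 4 epithelial and 3 mesenchymal regulators.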

Other observations

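Several weakly read epithelial factors were read unevenly between rEEOs libraries. In the order of replicates 1, 2 and 3, the counts of Tfap2a were 53, 0 and 0 in rEEOs compared to 5, 9 and 6 in rBMSCs. Tp63, a factor of basal epithelium, passed the filter with 53, 0 and 1 counts in rEEOs compared to 4, 10 and 11 in rBMSCs (log2 fold change 0.88, edgeR adjusted p = 0.590). The counts of Spdef were 40, 2 and 10 in rEEOs compared to 2, 2 and 4 in rBMSCs, and Foxa1 had 15, 3 and 5 counts in rEEOs and none in rBMSCs. Foxa2, which did not pass the filter, had 254, 2 and 79 counts in rEEOs and none in rBMSCs. Tfap2c and Elf5 went the other way, with 3, 18 and 21 and with 27, 30 and 112 counts in rEEOs and none in rBMSCs. Replicate 1 is also the library with the highest Grhl1 and Grhl2. These genes were chosen after their values were seen. Snai3, the remaining Snail family gene held, was read with 5, 13 and 4 counts in rEEOs compared to 3, 4 and 3 in rBMSCs, unlike Snai2, and Ovol3, with no rEEOs read, had 0, 3 and 6 in rBMSCs.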
